A study of Mus musculus with 6 samples.

Results

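The genes of glycolysis, of lactate and pyruvate handling and of the tricarboxylic acid (TCA) cycle were followed in hippocampal cells of mice recovering from long demyelination. The set was given as a list of 42 gene symbols, and all 42 were found among the 20323 genes that had a value, out of 27102 listed. They were divided by role into 14 glycolytic genes, 12 genes of lactate and pyruvate handling, and 16 genes of the TCA cycle and the malate-aspartate shuttle. The cells were green fluorescent cells taken from the hippocampus by magnetic sorting with an antibody to GFP. The animals carried Nestin-CreERT2, a Cre recombinase under the Nestin promoter of a kind that needs tamoxifen, and the reporter Rosa26-mGFP, so that GFP marks cells in which the Nestin promoter was active and their descendants. Both groups were fed cuprizone, a copper-binding agent that strips myelin, for 10 weeks and then had 4 weeks of recovery. Saline with 0.1% bovine serum albumin was the vehicle (3 animals). The other 3 animals were given the peptide neuregulin 1 beta 1 (Nrg-1β1), a ligand of ErbB receptor kinases. The Nrg-1β1 dose was 60 per kg per day, given in micrograms in the series description and in grams in the sample labels, so its unit is uncertain. Each library came from a different mouse. The question was whether Nrg-1β1 altered the transcripts of energy metabolism in these cells.

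Glycolysis splits glucose into pyruvate in the cytosol and yields ATP and NADH. Lactate dehydrogenase exchanges pyruvate for lactate, the monocarboxylate transporters carry both across the plasma membrane, and the mitochondrial pyruvate carrier and the pyruvate dehydrogenase complex bring pyruvate into the TCA cycle as acetyl-CoA. In brain, astrocytes are known for strong glycolysis and lactate release, while neurons and oligodendrocytes can take lactate up. Many steps have isozymes that differ between cell types. Lactate dehydrogenase is a tetramer of A and B subunits, of which the B subunit is the heart type and the A subunit the muscle type.

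The stretches just upstream of 3 genes are given because of how these genes stood in the test of the 42 members. Ldhb and Pfkl were the members that passed the test, and Ldha is the partner subunit of Ldhb that did not. Each line gives the 250 bases before the start site in the RefSeq table of GRCm38.p6, read 5′ to 3′ on the gene's own strand. Capitals mark the core of the hypoxia response element, the letters ACGTG or GCGTG on either strand, where 2 overlapping matches form 1 block.
Ldhb: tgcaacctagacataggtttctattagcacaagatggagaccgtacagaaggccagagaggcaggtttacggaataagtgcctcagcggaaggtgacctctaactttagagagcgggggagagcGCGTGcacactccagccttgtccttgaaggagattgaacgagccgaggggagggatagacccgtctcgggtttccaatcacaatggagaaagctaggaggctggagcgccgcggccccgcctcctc
Ldha: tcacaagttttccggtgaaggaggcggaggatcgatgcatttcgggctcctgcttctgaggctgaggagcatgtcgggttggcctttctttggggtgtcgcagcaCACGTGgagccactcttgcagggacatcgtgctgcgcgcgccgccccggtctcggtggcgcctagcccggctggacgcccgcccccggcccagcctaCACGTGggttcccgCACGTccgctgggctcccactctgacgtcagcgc
Pfkl: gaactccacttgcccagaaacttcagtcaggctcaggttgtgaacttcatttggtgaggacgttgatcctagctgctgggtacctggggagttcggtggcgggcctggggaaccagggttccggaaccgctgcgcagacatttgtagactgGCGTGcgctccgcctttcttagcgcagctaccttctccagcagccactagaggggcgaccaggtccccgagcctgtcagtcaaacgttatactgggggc
The Ldhb stretch is chr6:142507958-142508207 on the minus strand, that of Ldha is chr7:46845554-46845803 on the plus strand, and that of Pfkl is chr10:78009808-78010057 on the minus strand. Ldha has 2 start sites in the table, and the upstream of the first is shown. The Ldha stretch held 3 marked blocks, 2 of them CACGTG, whereas the Ldhb and Pfkl stretches held 1 each. GC content was 67.2% for Ldha, 56.4% for Ldhb and 59.2% for Pfkl, against a median of 52.4% over all upstream windows. At least 1 match was found in 38.6% of all windows of this length. By gene, 30 of the 40 members in that table, among them 11 of the 14 glycolytic genes, had a window with a match, against 41.5% of all genes. These shares were not matched for GC content or for the number of windows per gene, and every form of the motif holds CG. A match describes letters only, and no binding was measured.

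Levels are log2(normalized count + 4), the scale of the deposited table, and differences are Nrg-1β1 minus vehicle. Adding 4 makes changes of sparsely read genes look smaller than they are. Depth differed strongly. Recovered reads numbered 72953034, 1075813 and 47076006 in vehicle libraries 1 to 3 and 567073, 662909 and 1327003 in Nrg-1β1 libraries 1 to 3. The median member had 2687 to 3483.5 reads in the deep vehicle libraries 1 and 3 and 41.5 to 69 in the other 4 libraries, and 39 to 42 members per library had at least 10 reads. Depth and group therefore overlapped, with vehicle library 2 alone linking the groups at like depth. Sex-linked reads also differed between libraries. Reads of Ddx3y, a Y-linked gene, were 82, 1 and 1994 in the vehicle libraries against 29, 22 and 15 in Nrg-1β1, and reads of Xist were 3255, 216 and 1045 against 2, 3 and 1. For their depth, vehicle libraries 1 and 2 thus held few Y-linked reads. Vehicle library 3 held reads of both genes, at 121 normalized counts of Ddx3y and 63.2 of Xist. The Nrg-1β1 libraries had 3.04 to 15.3 normalized counts of Xist. A part of these sex-linked differences in the group differences cannot be told apart from treatment. The label calls the cells neural progenitors. The progenitor genes Sox2 and Gfap were read in every library (Sox2 from 85 to 6024 reads). Nes had 6, 9 and 9 reads in the Nrg-1β1 libraries and the proliferation gene Mki67 had 0, 1 and 2. The Nrg-1β1 libraries are shallow, so these read numbers alone do not show a difference from vehicle. Of 14 progenitor markers 1, Sox1, rose, 0 fell and 13 did not pass. Their differences were positive for 9 and negative for 5, with a median of 0.09 and a range from -1.65 to 1.96. The summed normalized count of 10 oligodendrocyte markers was 92950 to 190406 over the libraries, above that of the 14 progenitor markers at 3370 to 6171. In sorted bulk samples fewer cells of a type and less RNA per cell cannot be told apart.

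Of the 42 members 2 rose and 0 fell at an adjusted p of 0.05, and 40 did not pass (limma, Benjamini-Hochberg over all genes). The test called 1.06% of all genes, 0.438% as higher and 0.625% as lower, so 89 genes were higher and 127 lower. That split was 12 higher and 53 lower after quantile normalization and 335 higher and 164 lower after centring on library medians. The risers were Ldhb, which encodes the B subunit of lactate dehydrogenase, and Pfkl, which encodes the liver-type subunit of phosphofructokinase. The difference was positive for 32 members and negative for 10, and of these 10, Gapdh, Slc16a7, Dld, Idh2, Idh3a and Mdh1 turned positive after median centring, which raised the median of all genes from 0.03 to 0.25. The median difference was 0.29 over the members and 0.03 over all genes. In 11 members every Nrg-1β1 library was above every vehicle library, and in 1 member every one was below. Non-overlap of that kind was found in 7.37% (higher) and 10.4% (lower) of all genes, and in 13.7% and 9.55% of the genes averaging 50 normalized counts or more. At an unadjusted p under 0.05, 13 members were higher and 2 lower, where the shares of all genes were 6.15% and 6.86% (13.0% in either direction). With a single library left out the differences ran from 1.12 to 1.60 for Pfkl and from 1.64 to 2.81 for Ldhb. Neither passed in these smaller designs, in which 0 to 56 of all genes passed. A depth class term, or leaving out vehicle libraries 1 and 2, sets 1 vehicle library against the 3 Nrg-1β1 libraries, and 0 of all genes passed there, so these settings are read for their differences only.

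**Figure D1:**
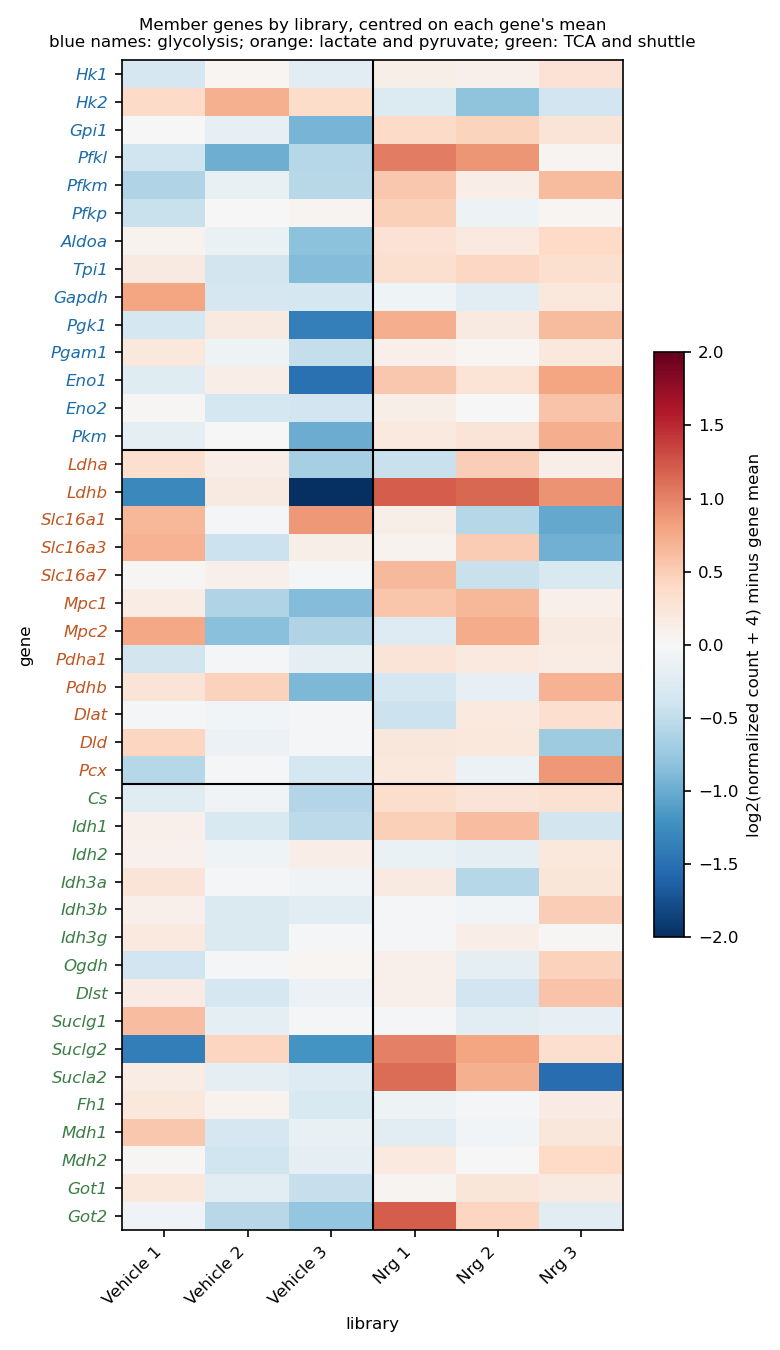
Level of each of the 42 members (rows, ordered by role) in the 6 libraries (columns), as log2(normalized count + 4) minus the gene's mean over libraries; red is above and blue below that mean, with colours saturated at 2. Vehicle library 3 is the lowest for much of glycolysis, Ldhb and Suclg2 are low in vehicle libraries 1 and 3, and Hk2 is higher in all vehicle libraries.

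**Figure D2:**
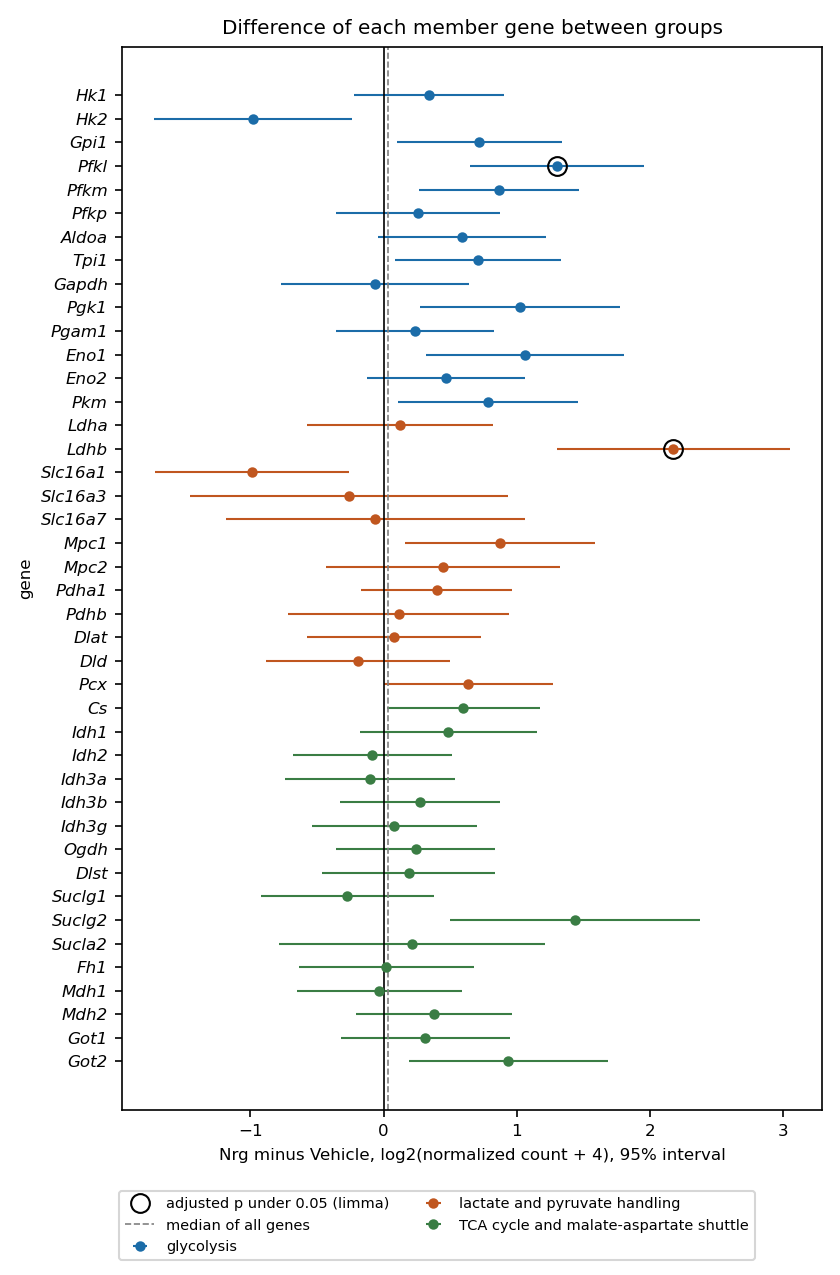
Difference between the groups for each member, Nrg-1β1 minus vehicle on the log2 scale, with its 95% interval from limma; colours give the role group, open circles mark adjusted p under 0.05 and the dashed line is the median of all genes (0.03). Only Pfkl (1.30) and Ldhb (2.18) are circled, and 12 of the 14 glycolytic genes lie to the right of 0.

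Glycolytic genes had the largest shift of the role groups. Of 14 members 1 rose, Pfkl, 0 fell and 13 did not pass, with a median difference of 0.65 and a range from -0.98 to 1.30. Every Nrg-1β1 library was above every vehicle library in 8 members and below in 1, Hk2. These counts rest on each gene's own reads. Aldoa, 1 of the 8, overlapped once reads of its near-identical copy Aldoart1 were added. The mean centred level of the group was -0.06, -0.11 and -0.61 in vehicle libraries 1 to 3 and 0.32, 0.13 and 0.34 in the Nrg-1β1 libraries. The groups did not overlap, and vehicle library 3 stood lowest. The TCA and shuttle level did not overlap either, at -0.30 to 0.04 in vehicle and 0.08 to 0.27 in Nrg-1β1. That of lactate and pyruvate handling overlapped. Astrocyte markers moved the same way as the glycolytic genes, with 10 of 10 differences positive, 0 passed and a median of 0.80. Their part in the glycolytic shift was not tested. The glycolytic median was 0.39 after quantile normalization, 0.40 with read depth class as a term, 0.42 without vehicle library 3 and 1.05 without vehicle libraries 1 and 2.

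The hexokinase genes at the entry of glycolysis differed in opposite directions. Hexokinase traps glucose in the cell as glucose 6-phosphate. Hk2, the inducible hexokinase, stood at 6.31, 6.64 and 6.30 in the vehicle libraries and at 5.66, 5.11 and 5.54 in the Nrg-1β1 libraries. All vehicle values were above all Nrg-1β1 values, which rest on 9, 6 and 14 reads. The difference was -0.98 ± 0.35 (SE; 95% interval -1.72 to -0.24) and did not pass (adjusted p = 0.214, limma). Hk1, the hexokinase of most brain cells, stood at 8.80, 9.17 and 8.92 in vehicle and at 9.25, 9.23 and 9.43 in Nrg-1β1. The Hk1 groups did not overlap, yet the difference of 0.34 ± 0.27 (SE) did not pass (adjusted p = 0.653, limma). Gpi1, which encodes glucose 6-phosphate isomerase, stood at 9.10, 8.92 and 8.16 in vehicle and at 9.46, 9.54 and 9.34 in Nrg-1β1, a difference of 0.72 ± 0.30 (SE) that did not pass (adjusted p = 0.287, limma).

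Phosphofructokinase commits sugar to glycolysis, and its subunits are encoded by Pfkl, Pfkm and Pfkp. Pfkl stood at 7.64, 7.06 and 7.47 in the vehicle libraries and at 9.07, 8.92 and 8.10 in the Nrg-1β1 libraries. The lowest Nrg-1β1 value was above the highest vehicle value, and the shallow vehicle library 2 was the lowest of all. Pfkl rose by 1.30 ± 0.31 (SE; 95% interval 0.65 to 1.95), a fold of 2.47 on this scale, just past the threshold (adjusted p = 0.0499, limma). It differed by 1.43, 1.14 and 1.34 without vehicle libraries 1, 2 and 3, and by 1.12, 1.19 and 1.60 without Nrg-1β1 libraries 1, 2 and 3 (adjusted p from 0.102 to 0.379). With all libraries kept, Pfkl passed after median centring (adjusted p = 0.0101, limma). It did not pass after quantile normalization (0.139, limma), with offsets of 1 (0.0688) and 16 (0.0586) or with array weights (0.0544). Nor did it among genes averaging 50 normalized counts or more (0.0752, limma) or with limma-voom (0.0645). A depth class term, which leaves vehicle library 2 alone to be set against the Nrg-1β1 libraries, gave a Pfkl difference of 1.63. Pfkm, the muscle-type subunit, stood at 9.04, 9.50 and 9.09 in vehicle and at 10.18, 9.77 and 10.28 in Nrg-1β1. The groups did not overlap, and the difference of 0.87 ± 0.29 (SE) did not pass (adjusted p = 0.16, limma). Pfkp, the platelet-type subunit, differed by 0.26 ± 0.29 (SE), with overlapping groups.

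Differences at the later steps were mostly positive. Pgk1, which encodes phosphoglycerate kinase, an ATP-yielding step, stood at 6.98, 7.52 and 5.97 in vehicle and at 8.06, 7.51 and 7.97 in Nrg-1β1. Vehicle library 2 lay inside the Nrg-1β1 range, and the difference of 1.02 ± 0.36 (SE) did not pass (adjusted p = 0.193, limma). It was 0.33 with read depth class as a term. Eno1, which encodes enolase 1, stood at 8.58, 8.95 and 7.33 in vehicle and at 9.37, 9.09 and 9.61 in Nrg-1β1, a difference of 1.06 ± 0.35 (SE, adjusted p = 0.165, limma) that was 0.40 with read depth class as a term. For both genes vehicle library 3 was the lowest. Tpi1 (triose phosphate isomerase), Pkm (pyruvate kinase) and Aldoa (aldolase A) differed by 0.71, 0.78 and 0.59 without overlap of the groups, and none passed. Eno2, the neuronal enolase, differed by 0.47, Pgam1 (phosphoglycerate mutase) by 0.24 and Gapdh (glyceraldehyde 3-phosphate dehydrogenase) by -0.06, all with overlapping groups; Gapdh turned to 0.15 after median centring. Gapdh was highest in vehicle library 1 (8.05) and lay between 6.90 and 7.47 in the other 5 libraries.

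Several glycolytic genes have near-identical copies elsewhere in the genome, and the deposited counting may have divided reads between gene and copy. A search with each member's longest coding transcript among GENCODE M21 transcripts (at least 90% identity over at least 300 bases) found other matching loci for 15 members, 177 of them for Gapdh, and copies with values in the table for 4 members. Eno1 held 32.8% of the reads of Eno1 plus its copy Eno1b in vehicle library 1 (95% Clopper-Pearson interval 32.2 to 33.5%) and 23.8% in vehicle library 3 (23.0 to 24.6%). In the 4 shallow libraries its share ran from 43.6% in Nrg-1β1 library 1 (37.9 to 49.6%) to 48.5% in vehicle library 2 (42.9 to 54.0%). Vehicle library 2 thus lay with the Nrg-1β1 libraries. Aldoa showed the same order beside Aldoart1, with 57.6% (57.0 to 58.2%) and 53.0% (52.2 to 53.7%) in vehicle libraries 1 and 3 and from 84.0% (78.9 to 88.3%) to 88.3% (83.8 to 92.0%) in the other 4. For Cs, which encodes citrate synthase, beside Csl, the share was 79.2% (78.4 to 79.9%) and 72.0% (71.2 to 72.9%) in the deep libraries and 87.1% (82.9 to 90.6%) to 89.8% (84.4 to 93.9%) in the shallow ones. Gapdh went otherwise, with 68.7% (67.5 to 69.8%), 63.3% (49.9 to 75.4%) and 62.9% (61.2 to 64.7%) of its family's reads in vehicle libraries 1 to 3 and 51.9% (37.6 to 66.0%), 44.6% (31.3 to 58.5%) and 53.3% (43.4 to 63.0%) in Nrg-1β1 libraries 1 to 3. There vehicle library 2 lay nearer the deep vehicle libraries, with wide intervals in every shallow library. Intervals cover counting error only.

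With the copies added, the differences of Eno1, Aldoa and Cs shrank, and that of Gapdh turned from negative to positive. Eno1 with Eno1b differed by 0.64 ± 0.30 (SE, adjusted p = 0.385, limma), Aldoa with Aldoart1 by 0.18 ± 0.31 (adjusted p = 0.802), and Cs with Csl by 0.45 ± 0.27 (adjusted p = 0.519). Gapdh with its 3 copies in the table differed by 0.31 ± 0.31 (adjusted p = 0.709), where Gapdh alone gave -0.06. Aldoa with Aldoart1 stood at 10.77, 9.98 and 10.00 in vehicle and at 10.38, 10.36 and 10.56 in Nrg-1β1. The groups of Aldoa thus overlapped, whereas those of Eno1 with Eno1b and of Cs with Csl still did not. This summing was chosen after the data had been seen. For Ldhb the search found the pseudogene Gm5514, 98.0% identical over 1002 bases. It has no values in the table, so how its reads were treated is unknown. The same holds for loci like Suclg2 (Gm15163, 98.9% over 1302 bases) and Pgk1 (Pgk1-rs7, 100% over 1255 bases). Got2 (Got2-ps1, 99.1%), Gpi1 (Gm1840, 98.7%), Pkm (Gm6560, 98.4%) and Tpi1 (Tpi-rs11, 97.7%) are among the other members with such loci. No other locus was found for Pfkl.

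**Figure D3:**
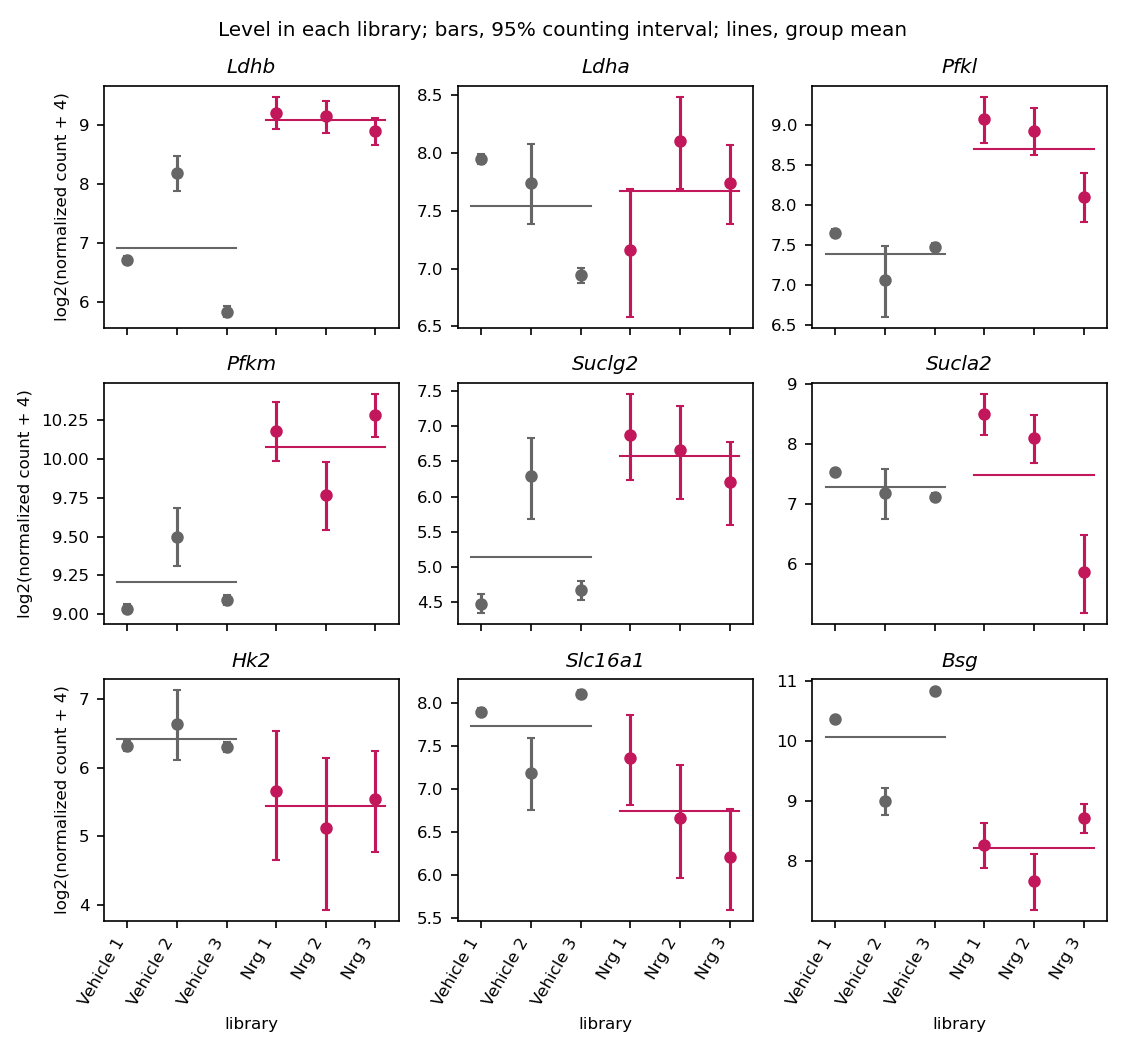
Level of 9 genes in each library, as log2(normalized count + 4), with 95% counting intervals (bars) and group means (lines); grey is vehicle and magenta Nrg-1β1. Ldhb is between 8.90 and 9.21 in all Nrg-1β1 libraries and at 8.19 in vehicle library 2, Pfkl does not overlap between groups, and Sucla2 spans 5.88 to 8.51 within the Nrg-1β1 group.

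Among the 12 genes of lactate and pyruvate handling 1 rose, Ldhb, 0 fell and 11 did not pass, with a median difference of 0.12. Ldhb stood at 6.71, 8.19 and 5.84 in the vehicle libraries and at 9.21, 9.14 and 8.90 in the Nrg-1β1 libraries. The Nrg-1β1 values lay close together above every vehicle value, while the vehicle values were spread, with the shallow library 2 far above the deep libraries 1 and 3. The means were 6.91 ± 1.19 and 9.09 ± 0.16 (SD, n = 3 each). Ldhb rose by 2.18 ± 0.42 (SE; 95% interval 1.30 to 3.05), a fold of 4.52, the largest difference of the 42 members (adjusted p = 0.0165, limma). Against vehicle library 2 alone, with read depth class as a term, it differed by 0.90, and against vehicle library 3 alone by 3.25. It differed by 2.07, 2.81 and 1.64 without vehicle libraries 1, 2 and 3, and by 2.11, 2.15 and 2.27 without Nrg-1β1 libraries 1, 2 and 3 (adjusted p from 0.0959 to 0.405). Ldha, the other subunit, stood at 7.95, 7.74 and 6.94 in vehicle and at 7.16, 8.10 and 7.74 in Nrg-1β1, with overlapping groups and a difference of 0.13 ± 0.33 (SE; 95% interval -0.57 to 0.82).

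None of the 3 monocarboxylate transporter genes passed. Slc16a1, which encodes the lactate and pyruvate transporter MCT1, stood at 7.89, 7.19 and 8.11 in vehicle and at 7.36, 6.66 and 6.21 in Nrg-1β1. Vehicle library 2 lay inside the Nrg-1β1 range, and the difference of -0.99 ± 0.35 (SE) did not pass (adjusted p = 0.195, limma). It was -0.45 with read depth class as a term. Slc16a3 (MCT4) and Slc16a7 (MCT2) had at most 3 reads in any shallow library and differed by -0.26 (95% interval -1.45 to 0.93) and -0.06 (-1.18 to 1.06). Bsg, which encodes basigin, the chaperone that carries MCT1 and MCT4 to the cell surface, stood at 10.37, 9.004 and 10.84 in vehicle and at 8.27, 7.67 and 8.72 in Nrg-1β1. Bsg, which is no member, fell by 1.85 on the log2 scale (SE 0.39, adjusted p = 0.0276, limma). The Bsg difference was -0.79 with read depth class as a term and ran from -2.39 to -1.47 with single libraries left out, without passing there (adjusted p from 0.143 to 0.437).

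Brain endothelium is rich in MCT1, basigin and the glucose transporter GLUT1. GLUT1 is encoded by Slc2a1, which stood at 7.96, 7.90 and 9.66 in vehicle and at 7.26, 6.24 and 7.37 in Nrg-1β1, a difference of -1.55 ± 0.42 (SE) without passing (adjusted p = 0.075, limma). Of 10 endothelial markers 8 fell, 0 rose and 2 did not pass, with a median difference of -2.85. Their summed normalized count was 648 to 3137 in vehicle and 119 to 143 in Nrg-1β1, and every marker had reads in both groups. The endothelial level and the levels of Slc2a1, Bsg and Slc16a1 were each highest in vehicle library 3. The centred levels of choroid plexus markers (1.72) and of pericyte and smooth muscle markers (1.31) were highest in that library too. The part of endothelial or other transcripts in the differences of Slc2a1, Bsg and Slc16a1 was not tested.

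Pyruvate entry into mitochondria showed no call. Mpc1 and Mpc2 encode the mitochondrial pyruvate carrier. Mpc1 stood at 6.91, 6.17 and 5.90 in vehicle and at 7.31, 7.43 and 6.86 in Nrg-1β1, a difference of 0.88 ± 0.34 (SE, adjusted p = 0.253, limma). Mpc2 stood at 7.07, 5.46 and 5.69 against 6.04, 7.04 and 6.48, with overlapping groups and a difference of 0.44 ± 0.42 (SE). In the pyruvate dehydrogenase complex, Pdha1 (the alpha subunit of the first enzyme) stood at 7.74, 8.07 and 7.93 against 8.36, 8.30 and 8.27. Its groups did not overlap, and the difference of 0.40 ± 0.27 (SE) did not pass (adjusted p = 0.584, limma). The other subunits, Pdhb, Dlat and Dld, differed by 0.12, 0.08 and -0.19 with overlapping groups, and Dld turned to 0.02 after median centring. Pcx, which encodes the anaplerotic pyruvate carboxylase, an enzyme that in brain is found mainly in astrocytes, stood at 7.99, 8.51 and 8.21 against 8.77, 8.44 and 9.42. Its difference of 0.64 ± 0.30 (SE) did not pass (adjusted p = 0.382, limma).

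None of the 16 genes of the TCA cycle and shuttle passed, and 12 differences were positive, with a median of 0.23 and a range from -0.27 to 1.44. At an unadjusted p under 0.05 there were 3, Suclg2, Got2 and Cs, all higher in Nrg-1β1, against 6.15% of all genes. Limma-voom on the recovered reads called only 0.108% of all genes and 0 of the 42 members, so its lack of calls among the 16 decides nothing. Suclg2 differed by 2.03 there (adjusted p = 0.0645, limma-voom). Cs, the entry enzyme of the cycle, stood at 9.18, 9.35 and 8.84 in vehicle and at 9.77, 9.67 and 9.72 in Nrg-1β1. It was the only gene of the 16 whose groups did not overlap. That share of 6.25% was no higher than the 7.37% of all genes, or the 13.7% of those averaging 50 normalized counts or more. The Cs difference was 0.60 ± 0.27 (SE, adjusted p = 0.36, limma). None of the genes of the decarboxylating steps passed. The NAD-dependent isocitrate dehydrogenase genes Idh3a, Idh3b and Idh3g differed by -0.10 (0.11 after median centring), 0.27 and 0.08, and Ogdh and Dlst, of the oxoglutarate dehydrogenase complex, by 0.24 and 0.19. The 95% intervals of these 5 genes reached from -0.74 to 0.87. Idh1, the cytosolic NADP-dependent enzyme, stood at 7.93, 7.54 and 7.31 against 8.32, 8.46 and 7.47, a difference of 0.49 ± 0.32 (SE), and mitochondrial Idh2 differed by -0.08, or 0.13 after median centring.

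Succinyl-CoA ligase joins the alpha subunit encoded by Suclg1 with either the GTP-specific beta subunit of Suclg2 or the ATP-specific beta subunit of Sucla2. Suclg2 stood at 4.48, 6.29 and 4.67 in vehicle and at 6.88, 6.66 and 6.21 in Nrg-1β1. Vehicle libraries 1 and 3 were low, and vehicle library 2 lay inside the Nrg-1β1 range. The difference of 1.44 ± 0.45 (SE) did not pass (adjusted p = 0.13, limma), and it was 0.29 with read depth class as a term. It passed after centring on library medians (1.65, adjusted p = 0.0381, limma). How reads of its pseudogene Gm15163 were treated is unknown. Sucla2 stood at 7.54, 7.19 and 7.13 against 8.51, 8.10 and 5.88, so that the highest and the lowest library were both in the Nrg-1β1 group. Suclg1 and Fh1, the fumarase gene, differed by -0.27 and 0.02.

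The malate-aspartate shuttle carries the reducing power of cytosolic NADH into mitochondria. Got2, the mitochondrial aspartate aminotransferase gene, stood at 7.14, 6.64 and 6.43 in vehicle and at 8.41, 7.63 and 6.97 in Nrg-1β1, a difference of 0.94 ± 0.36 (SE) without passing (adjusted p = 0.242, limma). Its cytosolic partner Got1 stood at 7.32, 6.89 and 6.64 against 7.16, 7.34 and 7.28, a difference of 0.31 ± 0.30 (SE). Neither malate dehydrogenase gene passed. Mitochondrial Mdh2 stood at 8.06, 7.63 and 7.84 against 8.22, 8.02 and 8.43, a difference of 0.38 ± 0.28 (SE), and cytosolic Mdh1 differed by -0.03 ± 0.30 (SE), or 0.18 after median centring.

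Pairs of isozymes were compared within each library, where a scaling factor of the library cancels for well-read genes. Because of the added 4 it cancels only in part for sparsely read genes. Among these are Slc16a7 and Suclg2, with means of 8.67 and 38.0 normalized counts in vehicle. For 10 pairs the log2 level of the second gene was subtracted from that of the first, and groups were compared by an exact two-sided permutation test, which cannot go below p = 0.1 with 3 libraries a group. The value for Hk2 to Hk1 was -2.49, -2.53 and -2.62 in vehicle and -3.59, -4.12 and -3.89 in Nrg-1β1, a difference of -1.32 between groups that do not overlap (exact p = 0.1, 0.25 adjusted over the 10 pairs). Vehicle library 2 lay with the deep vehicle libraries here, and Hk2 alone differed by -1.20 with read depth class as a term. Ldha to Ldhb was 1.24, -0.44 and 1.10 in vehicle and -2.05, -1.04 and -1.16 in Nrg-1β1, a difference of -2.05 (exact p = 0.1, 0.25 adjusted). Its sign turned between the deep vehicle libraries and the rest, with vehicle library 2 below 0, and the difference was -0.97 with read depth class as a term. Pfkp to Pfkm differed by -0.61 and Mdh1 to Mdh2 by -0.41, each without overlap (exact p = 0.1, 0.25 adjusted). The other 6 pairs overlapped, with exact p from 0.2 to 0.5. Of these, Eno1 to Eno2 (0.60) turned to -0.18 and Sucla2 to Suclg2 (-1.22) to 0.01 with read depth class as a term.

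**Figure D4:**
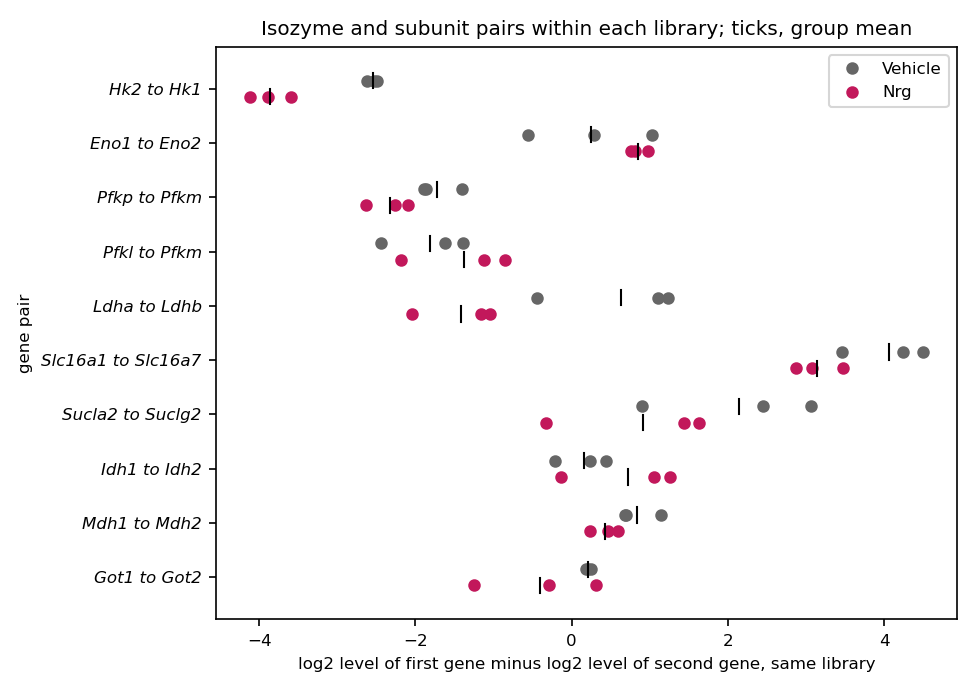
Log2 level of the first gene minus that of the second in the same library for 10 pairs (rows), with vehicle libraries in grey, Nrg-1β1 libraries in magenta and ticks at the group means. Hk2 to Hk1 is near -2.54 in all vehicle libraries and near -3.86 in Nrg-1β1, while Ldha to Ldhb is spread within the vehicle group.

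Levels of different genes were compared as normalized counts per kilobase of exon, with lengths from the GENCODE M21 basic annotation. For Hk1 the level was 102 ± 13.8 for the vehicle group and 130 ± 9.86 for the Nrg-1β1 group (each SD over n = 3), above Hk2 at 14.6 ± 2.13 and 7.11 ± 1.47. Pfkm was the highest phosphofructokinase gene in both groups, at 198 ± 36.3 and 363 ± 65.4. In vehicle Pfkl (44.6 ± 9.07) and Pfkp (41.4 ± 7.58) lay within each other's spread, whereas in Nrg-1β1 Pfkl (115 ± 37.1) was above Pfkp (50.01 ± 11.0). Ldha and Ldhb were at 101 ± 33.8 and 113 ± 94.8 in vehicle, which do not differ beyond their spread, and at 109 ± 34.7 and 415 ± 46.1 in Nrg-1β1. Aldoa, at 443 ± 132 in vehicle and 647 ± 46.4 in Nrg-1β1, had the highest mean of the 42 members in both groups and Pkm the next, at 358 ± 118 and 599 ± 128, counting each gene's own reads only and not those of copies such as Eno1b. Slc16a7 was the lowest in both, at 0.754 ± 0.048 and 0.773 ± 0.499.

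Further genes of the same pathways gave few calls. Of 27 other genes of glycolysis and glucose entry 0 passed (median 0.28), where 3 lay under an unadjusted p of 0.05, the limit that 13.0% of all genes met, 6.15% as higher and 6.86% as lower. Pgm1, a phosphoglucomutase gene, differed by 1.02 ± 0.38 (SE, adjusted p = 0.236, limma). Of 20 other genes of lactate and pyruvate handling 1 fell, Bsg, and 0 rose (median 0.13), with 5 under an unadjusted p of 0.05, 2 higher and 3 lower. Of 23 other genes of the TCA cycle and shuttle 0 passed (median 0.26), and 5 lay under an unadjusted p of 0.05, all higher. Me1, the cytosolic malic enzyme gene, stood at 7.95, 7.90 and 6.91 in vehicle and at 8.32, 8.67 and 9.03 in Nrg-1β1, a difference of 1.09 ± 0.32 (SE, adjusted p = 0.11, limma). Sdhc, which encodes a membrane subunit of succinate dehydrogenase, differed by 0.96 ± 0.29 (SE, adjusted p = 0.112, limma). Of 8 pentose phosphate genes 0 passed (median 0.09), with G6pdx, which encodes the first enzyme of that pathway, at 0.70 ± 0.34 (SE) and Rpe, an epimerase gene, at -0.84 ± 0.39 (SE), 1 of them, Rpe, under an unadjusted p of 0.05. The groups did not overlap for Me1, Sdhc, G6pdx or Rpe.

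Markers of other cell types differed between the groups as well. Of 10 microglial markers 7 fell (median -1.54), and of 10 choroid plexus markers 5 fell (median -2.15). Of 7 erythroid markers 4 fell (median -2.11), and of 10 pericyte and smooth muscle markers 1 fell (median -1.42). Neuronal markers had 9 of 10 positive differences (median 0.39) and oligodendrocyte markers 9 of 10 negative (median -0.54), with 0 passed in either list. The summed normalized count of the astrocyte markers was 22458 to 33133 in vehicle and 37838 to 44198 in Nrg-1β1, that of the neuronal markers 12302 to 22230 and 16019 to 25547. Centred levels of the astrocyte list were -0.41, -0.18 and -0.42 in vehicle and 0.62, 0.24 and 0.16 in Nrg-1β1. The neuronal list was lowest in vehicle library 3 (-0.72), where the glycolytic genes were lowest too. The part of these cell types in the metabolic differences was not tested.

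**Figure D5:**
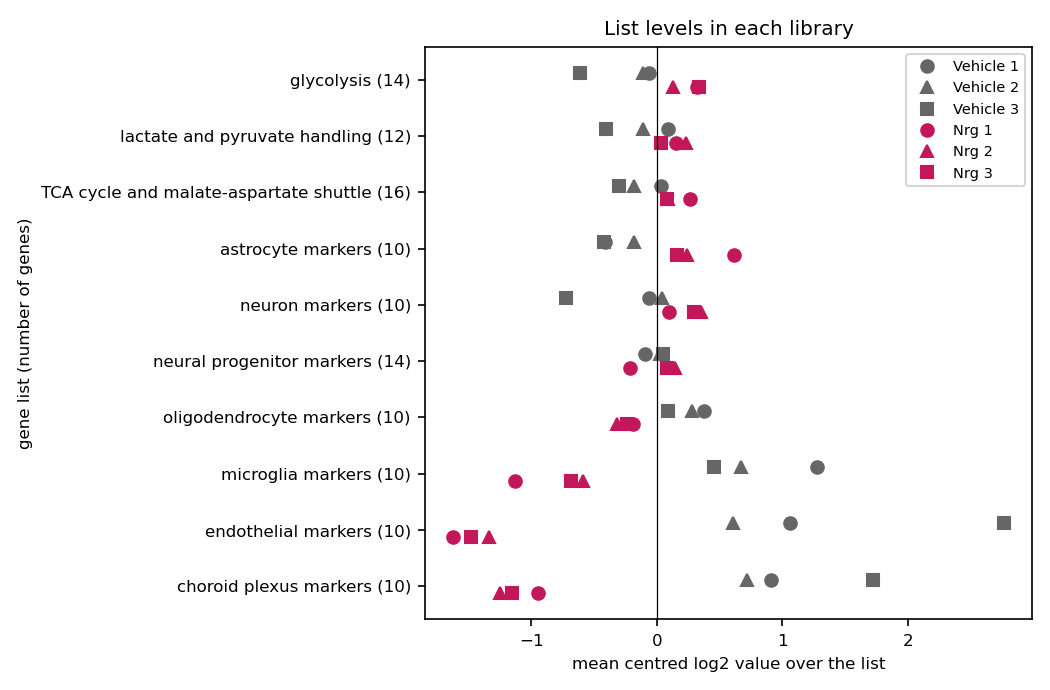
Mean centred log2 level of each gene list (rows, number of genes in brackets) in each library; grey symbols are vehicle, magenta symbols Nrg-1β1, and the shape gives the library number. The glycolytic, TCA, astrocyte and neuronal lists do not overlap between groups and are higher in Nrg-1β1. The oligodendrocyte, microglial, endothelial and choroid plexus lists do not overlap and are lower. The lactate and pyruvate list and the progenitor list overlap.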

How the data were processed

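RNA sequencing values of 6 libraries, 3 vehicle and 3 Nrg-1β1, were taken from the single table deposited by the authors. Reads were processed with Trimmomatic and Bowtie2, per the submitters' processing notes. No source used here gives versions, genome build, read counter, strand setting or normalization. The authors' deposited table is in log2 units. After 4 was subtracted from the unlogged values, 100% were whole multiples of 1 step per library within 0.02 of a read, so they were read as log2(normalized count + 4), an inference from the values. A read was worth 0.0605 to 5.17 normalized counts. No gene was filtered out beyond the blank rows, and all 42 members had values.

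Groups were compared with limma (R 4.3.3, limma 3.58.1) with an intensity trend on the deposited log2 values. The model held the group alone, and p-values were adjusted over all 20323 genes (Benjamini-Hochberg, threshold 0.05). Members and lists were chosen with earlier results of these data known. Values per library are given for members past the threshold and for the 6 members of each role group with the smallest p, and other pathway genes are named if past the threshold, otherwise the 2 with the smallest p per list. Hk1, Ldha and Sucla2 are given per library as isozyme partners, chosen after values were seen. Alternatives were quantile normalization, median centring, offsets of 1 and 16, a mean of at least 50 normalized counts, limma-voom on recovered reads, array weights, a depth term, a replicate block, single libraries left out, vehicle libraries 1 and 2 left out, and, added after the data were seen, summing of gene copies. Promoter sequences come from RefSeq (GRCm38.p6). Without a strand setting, reads of overlapping genes could not be told apart, which touches Pfkp beside Pitrm1 and Pdha1 beside Map3k15.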

Additional observations from a re-analysis of the deposited data

How the results depend on the processing

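The count of all called genes (216) was 65 with quantile normalization, 499 with median centring, 129 with an offset of 1, 49 among genes averaging 50 normalized counts or more, 22 with limma-voom, 334 with array weights, 0 with read depth class as a term and 0 without vehicle libraries 1 and 2, and 0 to 56 with single libraries left out. The count of called members (2) was 0 with quantile normalization, with that filter on the mean, with limma-voom, with read depth class as a term, without vehicle libraries 1 and 2 and with each single library left out. It was 1, Ldhb, with an offset of 1, an offset of 16 or array weights, and 3 with median centring, where Suclg2 joined. Where the count of all genes was 0, unadjusted p under 0.05 was found for 1729 genes with read depth class as a term, 2059 without vehicle libraries 1 and 2, and 2270 to 3385 without vehicle library 2 or 1 of the Nrg-1β1 libraries (limma). A lost call in designs where almost no gene passes says nothing about a gene's stability, and with single libraries left out Pfkl differed by 1.12 to 1.60 and Ldhb by 1.64 to 2.81. Adding gene copies left both counts as they were. The median difference of glycolysis (0.65) was 0.39 with quantile normalization, 0.40 with read depth class as a term, 1.05 without vehicle libraries 1 and 2 and 0.42 to 0.78 with single libraries left out. That of lactate and pyruvate handling (0.12) was 0.33 with median centring, 0.52 without vehicle libraries 1 and 2 and -0.0052 (without vehicle library 3) to 0.35 (without Nrg-1β1 library 1) with single libraries left out. That of the TCA cycle and shuttle (0.23) was 0.44 with median centring and 0.09 to 0.33 with single libraries left out. Median centring and limma-voom moved the median of all genes from 0.03 to 0.25. Of the 42 members 15, none of them called and none beyond 0.27 from 0, turned sign under at least 1 setting. With read depth class as a term these were Gapdh, Ldha, Slc16a3, Pdhb, Dld, Idh2, Suclg1, Fh1 and Mdh1. Bsg lost its call with quantile normalization, an offset of 1, the filter on the mean and limma-voom (adjusted p 0.0505 to 0.0792), and Me1 gained one with median centring (1.30, adjusted p = 0.042). Where calls were lost the cause was not tested. With the replicate block 627 genes and 3 members passed (Pfkl, Ldhb and Suclg2), and Slc2a1 passed (adjusted p = 0.00117). Same-numbered libraries had correlations of -0.27, -0.07 and -0.30 between their deviations from the group means, so no likeness by number was seen. The vehicle deviations also carry the depth differences between libraries. These correlations therefore cannot decide whether the numbers pair the libraries. Depth limits sparsely read genes, since 1 read is worth up to 5.17 normalized counts.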

Other observations

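Some values fell outside the comparisons, and the genes here were chosen after their values were seen. Aldoc, the brain aldolase known from astrocytes, stood at 12.42, 12.48 and 12.04 in vehicle and at 12.74, 12.63 and 13.18 in Nrg-1β1 on the log2(normalized count + 4) scale. Its groups did not overlap, and the difference of 0.54 ± 0.40 (SE) did not pass (adjusted p = 0.63, limma). Emb, which encodes embigin, a partner of the lactate transporter MCT2, was read 395, 7 and 1367 times in vehicle against 1, 2 and 2 times in Nrg-1β1, and its difference of -1.85 did not pass (adjusted p = 0.113, limma).

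The Gapdh copies Gm5523 and Gm5177 had as many reads in shallow as in deep libraries. Gm5523 was read 4, 1 and 2 times in vehicle against 3, 4 and 5 times in Nrg-1β1, and Gm5177 had 2, 3 and 1 against 3, 3 and 3. Vehicle library 1 held 72953034 reads in all and Nrg-1β1 library 1 held 567073. Vehicle library 2, of 1075813 reads, had 4 reads of both copies together. The pseudogene Gapdh-ps15 was read 1954, 18 and 1122 times in vehicle against 19, 24 and 42 times.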
